A study of Mus musculus with 8 samples.

Results

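Histone and DNA modifying enzymes were followed over 8 Affymetrix expression arrays of RNA from CD4+ T cells, taken fresh from mice of strain BALB/c. The genes were taken by symbol: every gene whose single symbol in the platform annotation began with Kdm, Kmt, Hdac, Sirt, Setd or Dnmt and a digit, plus the Tet genes and a fixed set of Ezh, Kat and Nsd genes, Ep300 and Crebbp. This gave 73 of the 18193 genes with a single symbol. All 73 passed the filter on dim genes, which kept 13983 genes, and 65 of them lay above a working floor (signal 37.3, the 40th percentile of all values) on all 8 arrays. Each gene was read from its brightest probe set. The members were brighter than most genes, with a median log2 level of 10.32 against 8.16 for all tested genes.

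There were 4 groups of 2 arrays. Control cells were cultured without antibodies and received DMSO, and dorsomorphin cells received 4 µM dorsomorphin in its place. Stimulated cells were cultured on bound antibody to CD3 with soluble antibody to CD28 for 1 h before DMSO was added, and the fourth group had the antibodies and then dorsomorphin. The compound or DMSO was present for 6 h in every group. The series title names inhibition of bone morphogenetic protein signalling in T cell activation as its subject. Dorsomorphin is a small inhibitor of type I receptors for bone morphogenetic proteins that also inhibits the kinase AMPK. Age and sex of the mice, and whether replicates came from separate mice or cultures, are not stated in the labels. The p-values therefore reflect array-to-array spread alone, and that spread may be technical.

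Chromatin modifying enzymes add or remove small chemical groups on histone tails and on cytosine in DNA. Histone methyltransferases write methyl marks and demethylases remove them, acetyltransferases loosen chromatin by acetylating histones, and deacetylases and sirtuins take acetyl groups off. In T cells, Polycomb methylation by Ezh2 and DNA methylation by Dnmt3a are known to restrain cytokine and lineage genes, and their balance with demethylases shapes how a stimulated cell differentiates.

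The array signals are linear values that had been brought to the same trimmed mean of 500 on each array, and their median per array ran from 45.4 to 74.5. The CD3 chain genes Cd3d, Cd3e and Cd3g and Cd4 were above the floor on every array. The summed signal of 8 measured CD4 T cell markers was 77482 to 77641 on the control arrays, 24669 to 32874 with dorsomorphin, 54401 to 54436 after stimulation and 34944 to 36646 with both, and 6 of the 8 fell with dorsomorphin in unstimulated cells. Of 10 myeloid and dendritic markers, the sum was 3941 to 5266 on the control arrays and 1015 to 1980 over the other 6. Of these 10, 3 fell with stimulation and 2 with dorsomorphin in unstimulated cells. The sums of 8 B cell markers were 595 to 726, 302 to 311, 343 to 484, and 549 to 569 in the order control, dorsomorphin, stimulated and both. Those of 6 CD8 T and NK cell markers were 1595 to 2026, 455 to 757, 697 to 1068, and 559 to 804. Of each list, 1 marker fell with stimulation and 1 with dorsomorphin in unstimulated cells. With dorsomorphin in stimulated cells 2 B cell markers rose, and 1 CD8 T and NK cell marker rose and 1 fell. Between 0 and 3 markers of the myeloid, B cell and CD8 lists lay under the floor on both arrays of a group. No marker was at 0. The part of these markers in the results below was not tested. In bulk samples fewer cells of a type and less RNA per cell cannot be told apart.

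Promoter sequences are shown for 4 members whose signals moved in the ways described below: Ezh2, which rose with stimulation, its relative Ezh1, which fell, and Hdac6 and Setd4, which fell with dorsomorphin in both unstimulated and stimulated cells. Each is the 250 bases before the gene's start in RefSeq (build GRCm38.p6), 5′ to 3′ on the gene's own strand, which is the minus strand for all 4. The windows are chr6:47595031-47595280 for Ezh2, chr11:101226464-101226713 for Ezh1, chrX:7947890-7948139 for Hdac6 and chr16:93603816-93604065 for Setd4. Capitals mark matches, on either strand, to the 7 motifs searched: CACGTG (E-box), GGGCGG (SP and KLF box), CCAAT (NF-Y box), CCGGAAG (ETS box), TGACGTCA (CRE), TGANTCA (AP-1) and GTAAACA (FOXO).
Ezh2: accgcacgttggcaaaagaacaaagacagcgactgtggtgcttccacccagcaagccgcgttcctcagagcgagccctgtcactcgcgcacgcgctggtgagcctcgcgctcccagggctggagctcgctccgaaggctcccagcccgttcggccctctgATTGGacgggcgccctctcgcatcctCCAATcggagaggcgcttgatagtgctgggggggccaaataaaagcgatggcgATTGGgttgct
Ezh1: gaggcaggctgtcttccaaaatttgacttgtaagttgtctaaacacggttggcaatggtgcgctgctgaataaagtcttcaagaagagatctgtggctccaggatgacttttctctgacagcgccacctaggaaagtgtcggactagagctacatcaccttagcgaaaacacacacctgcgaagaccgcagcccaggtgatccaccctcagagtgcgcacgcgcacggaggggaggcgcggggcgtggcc
Hdac6: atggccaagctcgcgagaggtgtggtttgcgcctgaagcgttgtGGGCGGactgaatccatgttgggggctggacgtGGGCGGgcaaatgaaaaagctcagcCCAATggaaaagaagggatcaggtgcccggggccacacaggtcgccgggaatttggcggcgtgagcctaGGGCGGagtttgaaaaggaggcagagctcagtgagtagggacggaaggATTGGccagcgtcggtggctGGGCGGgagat
Setd4: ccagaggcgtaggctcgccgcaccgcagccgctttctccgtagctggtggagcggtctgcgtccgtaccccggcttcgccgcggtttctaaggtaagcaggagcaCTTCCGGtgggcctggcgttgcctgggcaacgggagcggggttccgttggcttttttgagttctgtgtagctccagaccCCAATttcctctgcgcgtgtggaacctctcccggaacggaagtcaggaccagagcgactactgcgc
The Ezh2 window holds 3 NF-Y boxes and none of the other motifs, and the Ezh1 window holds none of the 7. The Hdac6 window holds 4 SP and KLF boxes and 2 NF-Y boxes, and the Setd4 window 1 NF-Y box and 1 ETS box. The table held windows for 58 of the 73 members, 84 windows in all. A GGGCGG box was in 59.5% of the members' windows and in 32.7% of all 32851 windows of the same length, and CCAAT in 38.1% against 33.8%. Of the 6 members that fell with dorsomorphin in both states, 4 had windows, and all 5 of their windows held CCAAT and 4 held GGGCGG. Of 12 windows from 5 members that rose with stimulation, 6 held CCAAT and 9 GGGCGG, in 3 members each. Of 27 windows from 20 members that fell with stimulation, 10 held CCAAT and 13 GGGCGG, in 9 and 11 members. These shares were not tested. A match of letters is a description and shows no binding.

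Across the 4 groups, more members fell than rose with stimulation alone, and none passed the test of stimulation in the presence of dorsomorphin. With stimulation alone, 6 of the 73 members rose and 25 fell, while 8.98% of all 13983 tested genes rose, 14.4% fell and 23.4% did either (limma, Benjamini-Hochberg adjusted p under 0.05). Those shares of the members were 8.22% and 34.2%. Among genes with a mean above the 60th percentile of all values, which held 64 members, 32.8% of the members and 19.9% of the 8610 genes fell. Rises made up 9.38% and 12.8% of these. The median log2 fold was -0.74 over the members and -0.27 over all tested genes.

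With dorsomorphin in unstimulated cells, 0 members rose and 11 fell (15.1%), beside 1.92% and 11.1% of all genes (13.1% in either direction), so the share of falls among the members was near the background. At an unadjusted p under 0.05 there were 29 of the 73 members and 4389 of the 13983 genes, in either direction. With dorsomorphin in stimulated cells, 16 rose (21.9%, background 9.71%) and 11 fell (15.1%, background 12.4%, or 22.1% in either direction). Among the brighter genes, dorsomorphin in unstimulated cells raised 0% of members against 2.43% of genes and lowered 14.1% against 14.3%, and in stimulated cells it raised 21.9% against 13.8% and lowered 15.6% against 17.1%. Stimulation in the presence of dorsomorphin moved 0 members and 0 genes (0%) past the threshold of limma, with 4 of the members and 539 of all genes at an unadjusted p under 0.05. The comparisons of stimulation alone and of dorsomorphin in stimulated cells share the 2 stimulated arrays, so a gene that was low on those arrays falls in the first and rises in the second.

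**Figure D1:**
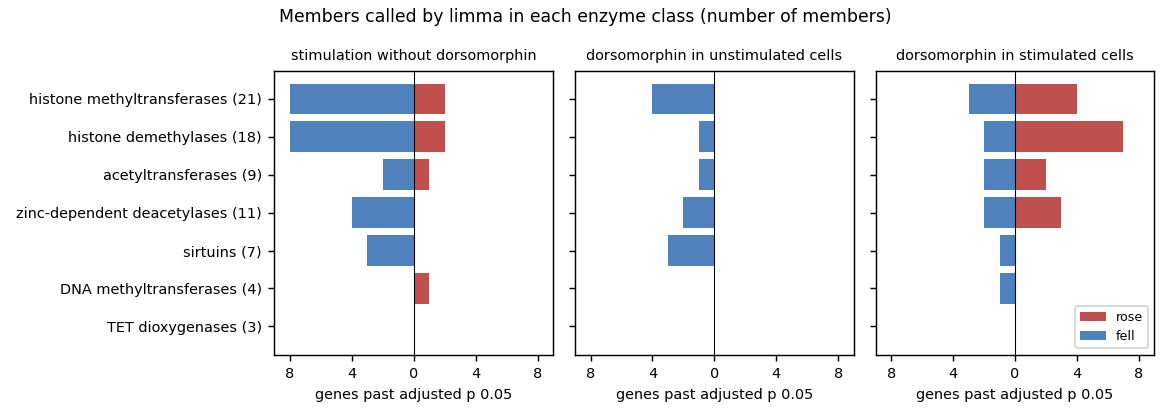
Number of members that rose (red, to the right) or fell (blue, to the left) at a limma adjusted p under 0.05 in 3 comparisons, by enzyme class with the number of members in brackets. Falls with stimulation were spread over 5 classes, and with dorsomorphin in unstimulated cells 0 members rose.

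These counts depended on the scaling and on single arrays. Centring each array on its median changed stimulation alone to 6 rises and 12 falls, and dorsomorphin in stimulated cells to 5 rises and 10 falls. After cyclic loess the splits were 10 and 18, and 11 and 11. The counts over all genes moved too. For stimulation alone they were 1256 rises and 2013 falls, then 1001 and 1040 with median centring and 1594 and 1601 with cyclic loess. For dorsomorphin in stimulated cells they were 1358 and 1738, then 689 and 1520, and 1141 and 2159. Over all genes, the middle fold with stimulation alone moved on the log2 scale from -0.27 to 0.08 and to -0.01, and none of the members called in any comparison changed sign under either scaling. Leaving out either control array left 0 members called for stimulation alone and for dorsomorphin in unstimulated cells (limma), with 31 and 33 for the former at an unadjusted p under 0.05, and 16 and 15 for the latter. The same held for all genes, with 0 called in both comparisons and 3794 and 3813, and 3004 and 2838, at an unadjusted p under 0.05. Without stimulated replicate 2, 1 member rose and 1 fell with stimulation (261 and 419 of all genes), and with dorsomorphin in stimulated cells 3 rose and 3 fell (459 and 681). Without a stimulated dorsomorphin array or a control array, dorsomorphin in stimulated cells had fewer rises and falls, both of members and of all genes. Without dorsomorphin replicate 2, fewer members and fewer of all genes fell with dorsomorphin in unstimulated cells. Replicate 2 read lower than replicate 1 for 33 of the 73 members in control cells, 48 with dorsomorphin, 54 after stimulation and 59 with both. In this order, the median log2 difference of replicate 1 minus replicate 2 was -0.03, 0.19, 0.36 and 0.22 over the members. Over all tested genes it was 0.02, 0.12, 0.14 and 0.09. In all 4 groups replicate 2 also had the lower median signal, and the lowest was that of stimulated replicate 2 (45.4). Of the 25 members that fell with stimulation, 20 read lower on that array than on stimulated replicate 1, beside 54 of all 73 members.

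**Figure D2:**
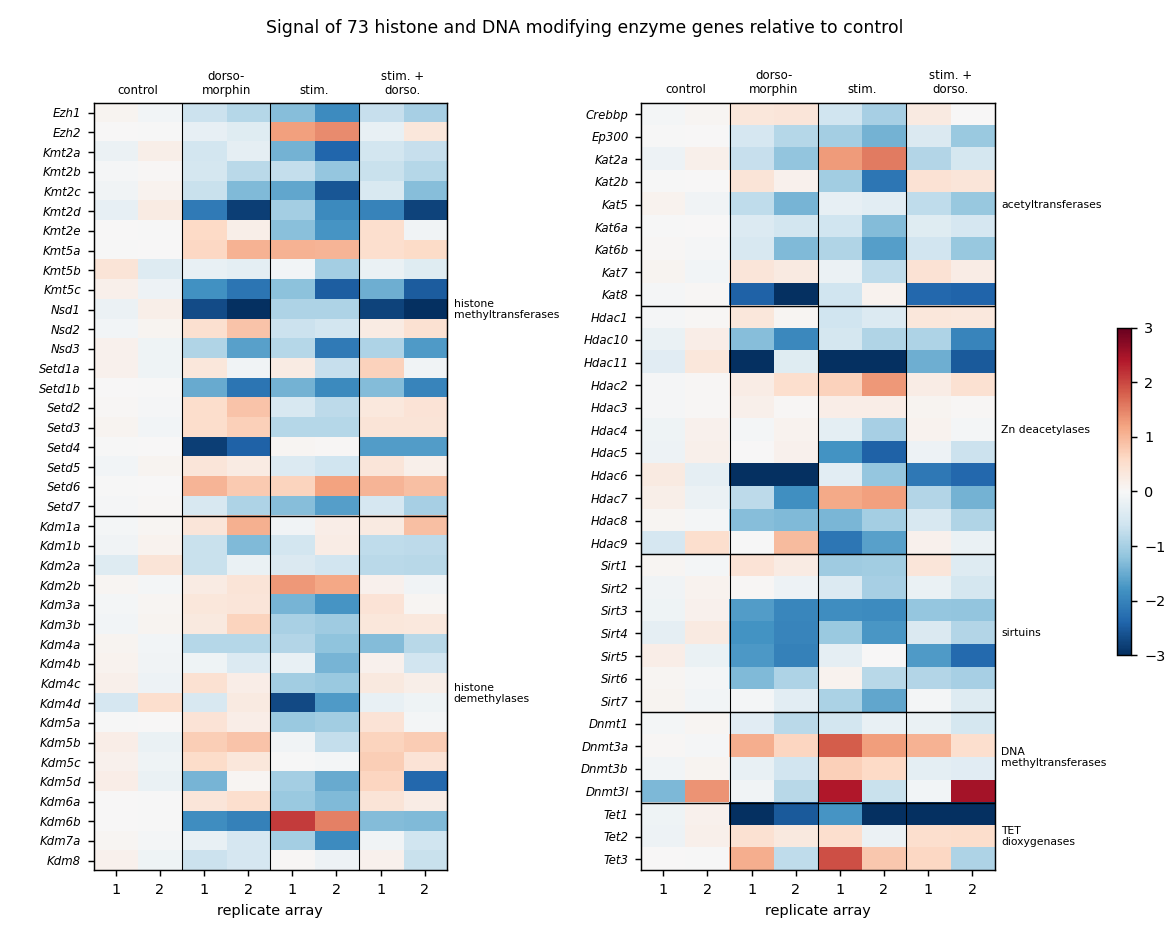
Log2 signal of the 73 members on each of the 8 arrays, minus the gene's mean on the 2 control arrays, with enzyme classes separated by lines. Red is higher than control and blue lower, and the colour stops at -3 and 3. The stimulated arrays are blue for most members, with Ezh2, Kdm2b, Kdm6b, Kat2a, Hdac2, Hdac7, Dnmt3a and Kmt5a among those in red.

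The counts of each class below stand beside the shares of all tested genes. With stimulation 8.98% rose and 14.4% fell, with dorsomorphin in unstimulated cells 1.92% and 11.1%, and in stimulated cells 9.71% and 12.4%. No class was tested against these shares. The histone methyltransferases had 21 members. With stimulation 2 rose and 8 fell, with dorsomorphin in unstimulated cells 4 fell, and with dorsomorphin in stimulated cells 4 rose and 3 fell. Ezh2 is the main catalytic subunit of Polycomb repressive complex 2, which methylates histone H3 to keep genes silent. Its signals, given here and below in the order of replicates 1 and 2, were 1895 and 1874 on the control arrays, 1599.6 and 1469 with dorsomorphin, 4417 and 5067 after stimulation, and 1605 and 2403 with both. Both stimulated arrays lay above all 6 others. Ezh2 rose 2.51-fold with stimulation (1.33 ± 0.27 on the log2 scale, limma estimate ± SE as for all such values, 2 arrays in each group, adjusted p = 0.0220) and fell by 1.27 ± 0.27 on the log2 scale with dorsomorphin in stimulated cells (adjusted p = 0.0240). With median centring the second fold was -1.53 and did not pass (adjusted p = 0.053).

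Ezh1, the relative that can replace Ezh2 in the same complex, moved the other way with stimulation. It read 2171 and 1943 on the control arrays and 845 and 552 after stimulation, a fall of 1.59 ± 0.29 log2 units (adjusted p = 0.0177). The dorsomorphin arrays, at 1309 and 1144 without and 1281 and 1022 with stimulation, lay between these groups. Its probe sets disagreed about dorsomorphin in unstimulated cells. There the brightest one had a log2 fold of -0.75, while the 3 others, above the floor on 4 to 8 arrays, had 1.86 to 2.08, so no direction is given for Ezh1 in that comparison. With dorsomorphin in stimulated cells all 4 probe sets lay above 0, from 0.74 to 4.78, and the brightest did not pass (adjusted p = 0.123).

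The Kmt2 and Setd1 enzymes methylate histone H3 at active promoters and enhancers. Kmt2c read 4047 and 4655 in control cells and 1473 and 737 after stimulation, a 4.17-fold fall (log2 fold -2.06 ± 0.47, adjusted p = 0.0295). Kmt2a fell 3.74-fold, from 3145 and 4057 to 1338 and 682 (-1.90 ± 0.37, adjusted p = 0.0208). Kmt2b fell by 0.94 and Kmt2e, a family member with little known enzyme activity, by 1.51. In these 4 genes no stimulated array overlapped a control array. Kmt2e read 3219 and 2236 after stimulation and 10743 and 7099 with both agents, a rise of 1.70 ± 0.33 with dorsomorphin in stimulated cells (adjusted p = 0.0187). For Kmt2a and Kmt2c the same comparison gave 1.28 and 1.19 and did not pass (adjusted p = 0.0581 and 0.127).

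Kmt2d and Setd1b fell with dorsomorphin in unstimulated cells. Kmt2d read 4693 and 6616 in control cells, 1286 and 791 with dorsomorphin, 2738 and 1483 after stimulation, and 1393 and 818 with both. It fell 5.52-fold with dorsomorphin in unstimulated cells (-2.47 ± 0.46, adjusted p = 0.0281), but a dimmer probe set of the gene gave 0.92, and the mean of its probe sets did not pass (-0.77, adjusted p = 0.320). Setd1b read 3343 and 3306 in control cells, and 728 to 1345 over the 6 other arrays. It fell by 1.66 ± 0.37 with stimulation (adjusted p = 0.0277) and by 1.85 ± 0.37 with dorsomorphin (adjusted p = 0.0313), and its other probe set gave -1.72 and -1.79. These 2 comparisons share the control arrays.

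The Nsd enzymes and Setd2 methylate histone H3 over transcribed genes. Nsd1 read 2362 and 2989 in control cells, 417 and 243 with dorsomorphin, 1410.1 and 1402 after stimulation, and 389 and 327 with both. All 4 arrays with dorsomorphin lay below all 4 without it. Nsd1 fell 8.35-fold in unstimulated cells (-3.06 ± 0.32, adjusted p = 0.0109) and 3.94-fold in stimulated cells (-1.98 ± 0.32, adjusted p = 0.0125). Of its 2 other probe sets above the floor on at least 4 arrays, 1 gave -1.49 and -0.66 and the other 0.42 and 0.64, and with the mean of all probe sets neither fall passed (adjusted p = 0.192 and 0.517). Setd2 rose by 1.00 ± 0.24 and Nsd2 by 0.95 ± 0.24 with dorsomorphin in stimulated cells (adjusted p = 0.0335 and 0.0398). Neither rise passed with median centring. In unstimulated cells their folds were 0.69 ± 0.24 and 0.67 ± 0.24 and did not pass. The differences between the folds in the 2 states, 0.31 ± 0.33 and 0.28 ± 0.34, did not pass either.

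Setd4 was lower on all 4 arrays with dorsomorphin than on the 4 without it. It read 473 and 478 in control cells and 493 and 491 after stimulation, against 67.2 and 88.5 with dorsomorphin and 148 and 148 with both. Stimulation alone gave 0.05 ± 0.22 on the log2 scale and did not pass. Dorsomorphin lowered it 6.16-fold in unstimulated cells (-2.62 ± 0.22, adjusted p = 0.00975) and 3.32-fold in stimulated cells (-1.73 ± 0.22, adjusted p = 0.00804). Its 2 other probe sets had the same sign in both comparisons, from -2.28 to -1.64 and from -1.92 to -1.04. Kmt5a, which puts a single methyl group on histone H4 and is tied to the cell cycle, rose 2.05-fold with stimulation, from 1956 and 2001 to 4092 and 4021 (1.04 ± 0.23, adjusted p = 0.0287). That rise did not pass with median centring (1.39, adjusted p = 0.0511) or with the mean of its probe sets (0.15, adjusted p = 0.887). The mean includes probe sets under the floor on every array, at -0.37 and -0.57. The 1 other probe set above the floor gave 0.51. Setd7, a lysine methyltransferase with histone and other substrates, fell by 1.46 with stimulation, although a probe set near the floor gave 0.79. Setd3, known as an actin methyltransferase, fell by 0.86 with stimulation and rose by 1.24 with dorsomorphin in stimulated cells. That rise did not pass with median centring.

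Histone demethylases numbered 18. With stimulation 2 rose and 8 fell, with dorsomorphin 1 fell in unstimulated cells, and in stimulated cells 7 rose and 2 fell. With median centring, 2 of the 8 falls with stimulation and 2 of the 7 rises passed, the rises being those of Kdm3a and Kdm6a. After cyclic loess 6 of these falls and 6 of these rises passed. Kdm6b, which removes the Polycomb methyl mark, read 2457 and 2426 in control cells, 671 and 601 with dorsomorphin, 10534 and 6979 after stimulation, and 989 and 973 with both. The 4 groups did not overlap. Kdm6b rose 3.51-fold with stimulation (1.81 ± 0.26, adjusted p = 0.0122), fell 3.85-fold with dorsomorphin in unstimulated cells (-1.94 ± 0.26, adjusted p = 0.0144) and fell 8.74-fold with dorsomorphin in stimulated cells (-3.13 ± 0.26, adjusted p = 0.00576). Its 2 other probe sets had the same signs, from 1.10 to 1.85, from -1.91 to -0.34 and from -3.18 to -1.18 in these comparisons. The fold of stimulation with dorsomorphin present was 0.63 ± 0.26 (adjusted p = 1.00), and the interaction, the difference between the dorsomorphin effects in the 2 states, was -1.18 ± 0.37 and did not pass (adjusted p = 0.121).

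Kdm6a, the X-linked relative of Kdm6b, showed the opposite order. It read 3467 and 3403 in control cells, 4420.5 and 4906 with dorsomorphin, 1595 and 1378 after stimulation, and 4520.5 and 3985 with both. It fell by 1.21 ± 0.21 with stimulation (adjusted p = 0.0166) and rose by 1.52 ± 0.21 with dorsomorphin in stimulated cells (adjusted p = 0.00914). The mean of its probe sets gave 1.31 for the latter and did not pass (adjusted p = 0.179). Kdm2b, which brings a Polycomb complex to CpG-rich promoters, had the same calls as Ezh2. It read 2228 and 2067, 2541 and 2799.8, 5282 and 4760.2, and 2355 and 2011 in the order control, dorsomorphin, stimulated and both. It rose by 1.22 ± 0.21 with stimulation (adjusted p = 0.0165) and fell by 1.20 ± 0.21 with dorsomorphin in stimulated cells (adjusted p = 0.0155).

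**Figure D3:**
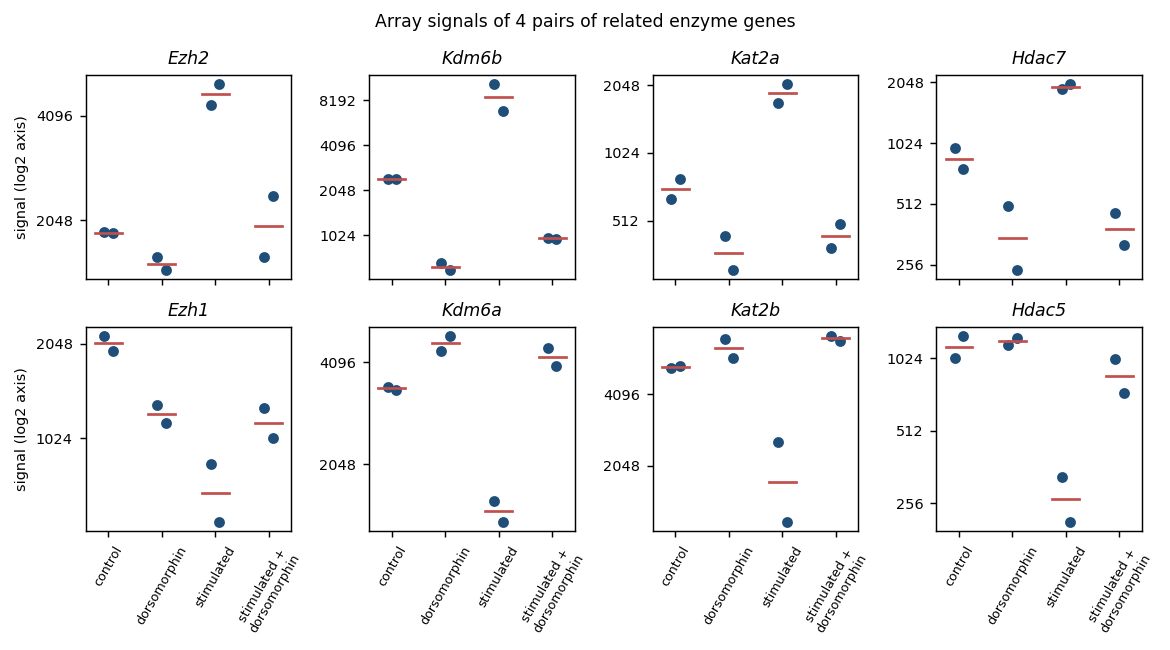
Signal of 4 pairs of related genes on each array (points, log2 axis, a separate scale in each panel), with the group's mean of log2 signals as a red line. The upper genes are highest on the 2 stimulated arrays and the lower genes are lowest there. The scales of different genes are not comparable.

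The Kdm3 and Kdm4 families remove methyl groups from histone H3. Kdm3a read 4739.8 and 5113 in control cells, 1869.8 and 1434 after stimulation, and 6526 and 5159.6 with both agents. It fell 3.01-fold with stimulation (-1.59 ± 0.25, adjusted p = 0.0133) and rose 3.54-fold with dorsomorphin in stimulated cells (1.83 ± 0.25, adjusted p = 0.00835). Kdm3b and Kdm4c did the same at -1.02 and 1.35, and at -1.07 and 1.30. The rises of Kdm3b (1.09, adjusted p = 0.0823) and Kdm4c did not pass with median centring. A dimmer probe set of Kdm3b gave 0.93 with stimulation. Kdm4a fell by 1.04 and Kdm7a, another histone demethylase, by 1.45 with stimulation, and neither passed with dorsomorphin in stimulated cells. Kdm4b was at -0.81 with stimulation and did not pass (adjusted p = 0.246).

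Kdm5 enzymes remove methyl groups from histone H3 at active promoters. Kdm5a read 2685 and 2715 in control cells and 1248 and 1302 after stimulation, and 3596 and 2579 with both. It fell by 1.08 ± 0.25 and rose by 1.26 ± 0.25 in the 2 comparisons (adjusted p = 0.0295 and 0.0199), and 5 other probe sets had the same signs. Kdm5b passed with dorsomorphin in stimulated cells only, at 1.12 ± 0.29 (adjusted p = 0.0411), against 0.80 ± 0.29 in unstimulated cells (adjusted p = 0.122), and the difference between these folds was 0.33 ± 0.41 and did not pass. Kdm5c and the lysine demethylase gene Kdm1a did not pass in any comparison. Kdm4d was called lower with stimulation and higher with dorsomorphin in stimulated cells, but it read 6.23 to 57.3 over the 8 arrays. On the control side 1 array (28.6) lay under the floor, so no fold is given for its fall with stimulation. None is given for the other call because both sides lay under the floor.

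Of the 9 acetyltransferases, 1 rose and 2 fell with stimulation, and with dorsomorphin in stimulated cells 2 rose and 2 fell. Kat2a and Kat2b are alternative catalytic subunits of the SAGA coactivator complex, and they moved in opposite directions. Kat2a read 640.4 and 782 in control cells, 439 and 309.7 with dorsomorphin, 1706 and 2073 after stimulation, and 387 and 494 with both. It rose 2.66-fold with stimulation (1.41 ± 0.29, adjusted p = 0.0230) and fell 4.30-fold with dorsomorphin in stimulated cells (-2.10 ± 0.29, adjusted p = 0.00861). A second probe set gave 1.71 and -2.30, and a dimmer one gave -0.03 and 0.15. With the mean of the 3, the rise did not pass (1.03, adjusted p = 0.0654). Kat2b read 5253 and 5387, 6992 and 5814, 2569 and 1187, and 7189 and 6846 in the order control, dorsomorphin, stimulated and both. It fell by 1.61 ± 0.39 with stimulation (adjusted p = 0.0343) and rose by 2.01 ± 0.39 with dorsomorphin in stimulated cells (adjusted p = 0.0189), with 2 other probe sets of the same signs. Their mean gave 2.38 for the rise and did not pass (adjusted p = 0.076).

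Kat8, which acetylates histone H4, was low with dorsomorphin in either state. Its signals were 1124 and 1174 in control cells, 213 and 102 with dorsomorphin, 758 and 1226 after stimulation, and 225 and 216 with both. It fell 7.79-fold in unstimulated cells (-2.96 ± 0.42, adjusted p = 0.0154) and 4.37-fold in stimulated cells (-2.13 ± 0.42, adjusted p = 0.0200). Ep300 and Crebbp encode the related coactivators p300 and CBP. Ep300 fell by 1.22 ± 0.31 with stimulation, from 2734 and 2789 to 1356 and 1037 (adjusted p = 0.0407, and 0.0968 with median centring). Crebbp read 6332 and 6883 in control cells and 4366 and 3305 after stimulation and did not pass (-0.80 ± 0.24, adjusted p = 0.0616). It rose by 0.93 with dorsomorphin in stimulated cells (adjusted p = 0.0418), but not after either other scaling, and 1 of its 3 other probe sets gave -1.33. Kat5, Kat6a, Kat6b and Kat7 did not pass in any comparison.

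**Figure D4:**
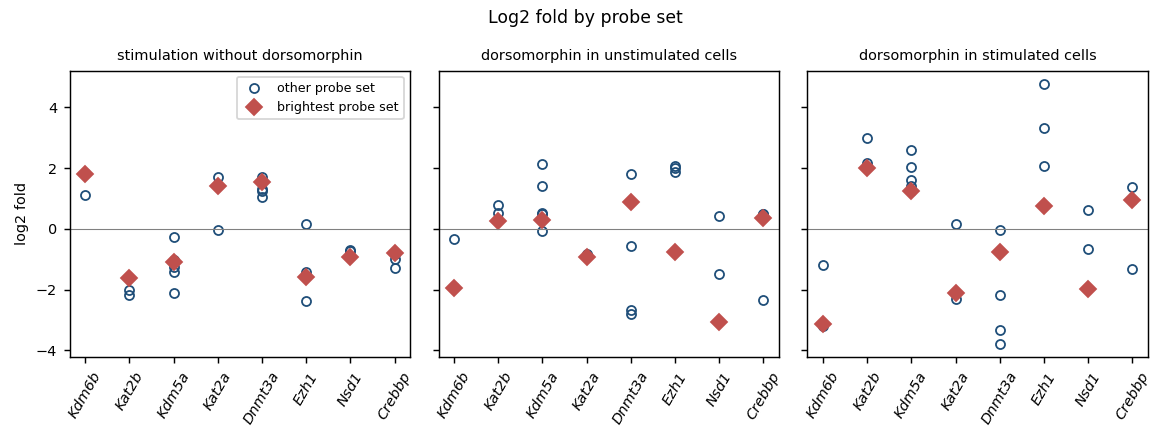
Log2 fold of every probe set above the floor on at least 4 arrays for 8 members in 3 comparisons, with the brightest probe set as a red diamond and the others as open circles. Probe sets of Kdm6b, Kat2b and Kdm5a have the same sign with stimulation and with dorsomorphin in stimulated cells, while those of Dnmt3a, Nsd1 and Crebbp lie on either side of 0 with dorsomorphin in unstimulated cells.

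The 11 zinc-dependent deacetylases had 4 falls with stimulation, 2 falls with dorsomorphin in unstimulated cells, and 3 rises and 2 falls with dorsomorphin in stimulated cells. Hdac5 and Hdac7 belong to a class that shuttles between nucleus and cytoplasm under signals and represses MEF2 target genes. Hdac5 read 1029.8 and 1272 in control cells, 1163 and 1251 with dorsomorphin, 330.5 and 214 after stimulation, and 1022 and 735 with both. It fell 4.30-fold with stimulation (-2.11 ± 0.31, adjusted p = 0.0124) and rose 3.26-fold with dorsomorphin in stimulated cells (1.70 ± 0.31, adjusted p = 0.0169). Hdac7 was higher on the stimulated arrays, at 1889 and 2013 against 968 and 759 in control cells, 499 and 240.5 with dorsomorphin, and 462 and 322 with both. Its fold with stimulation was 1.19 ± 0.41 and did not pass (adjusted p = 0.0855), but it passed with median centring (1.54, adjusted p = 0.0479) and cyclic loess (1.43, adjusted p = 0.0403). With dorsomorphin in stimulated cells Hdac7 fell 5.06-fold (-2.34 ± 0.41, adjusted p = 0.0147), and its other probe set gave -2.15.

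Hdac6, a mainly cytoplasmic enzyme that deacetylates tubulin, read 436 and 297 in control cells, 38.3 and 27 with dorsomorphin, 289 and 160.3 after stimulation, and 82 and 70.4 with both. It fell 11.2-fold in unstimulated cells (-3.49 ± 0.39, adjusted p = 0.0111), where 1 of the 2 dorsomorphin arrays lay under the floor, and 2.83-fold in stimulated cells (-1.50 ± 0.39, adjusted p = 0.0422). Hdac8 read 258 and 236 in control cells and 94.8 to 178 over the other 6 arrays, with falls of 1.20 ± 0.26 with stimulation and 1.30 ± 0.26 with dorsomorphin against the same control arrays. Neither fall of Hdac8 passed under either other scaling. Hdac1, Hdac2 and Hdac3 are the core enzymes of the large nuclear corepressor complexes. Hdac3 ran from 1753 to 2081 over the 8 arrays. Hdac1 read 3167 and 3332, 4140.4 and 3376, 2153 and 2428, and 4119 and 4065 in the order control, dorsomorphin, stimulated and both. Its log2 fold with stimulation was -0.51 ± 0.22 and did not pass (adjusted p = 0.148), and it rose by 0.84 ± 0.22 with dorsomorphin in stimulated cells (adjusted p = 0.0428), a call lost with either other scaling. Hdac2 read 2771 and 2934 in control cells and 4585 and 7074 after stimulation and did not pass (1.00 ± 0.29, adjusted p = 0.0542). Hdac11 and Hdac9 were called lower with stimulation, but at signals of 2.73 to 63.3 and 7.44 to 64.7. The fall of Hdac11 was at least 1.35-fold, and no fold is given for Hdac9. None of these calls, nor those of Kdm4d, passed under either other scaling. Hdac9 was also called higher with dorsomorphin in stimulated cells with both sides under the floor.

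Sirtuins are deacylases that use NAD+, and 0 of the 7 rose in any comparison. With stimulation 3 fell, with dorsomorphin 3 fell in unstimulated cells and 1 in stimulated cells. The 3 with dorsomorphin in unstimulated cells were Sirt3, Sirt4 and Sirt5, which are mitochondrial. Sirt3, the main mitochondrial deacetylase, read 313 and 372 in control cells, 106 and 87.3 with dorsomorphin, 94.1 and 92.3 after stimulation, and 152 and 149 with both. The control arrays lay above all others. It fell by 1.87 ± 0.22 with stimulation (adjusted p = 0.00947) and by 1.83 ± 0.22 with dorsomorphin (adjusted p = 0.0123), with the same control arrays in both. Its interaction was 2.52 ± 0.31, with the smallest adjusted p of the members (0.0543), and that of Sirt4 was 2.64 ± 0.48 (adjusted p = 0.0647).

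Sirt4, which also fell in both comparisons and was highest on the control arrays, read 159 and 234, 55.5 and 49.3, 89.4 and 57.9, and 142 and 105 in the order control, dorsomorphin, stimulated and both. Sirt5, which removes succinyl and related groups, read 298 and 225 in control cells and 214 and 263 after stimulation, against 78.6 and 63.3 with dorsomorphin and 79.4 and 51.3 with both. It fell by 1.88 ± 0.32 in unstimulated and by 1.90 ± 0.32 in stimulated cells (adjusted p = 0.0224 and 0.0134). With the mean of its probe sets the second fold was -2.36 and did not pass (adjusted p = 0.0871). Sirt7, a nucleolar member, read 5999.9 and 5429 in control cells and 2966 and 1931 after stimulation, a fall of 1.25 ± 0.29 (adjusted p = 0.0317). With median centring 1 of the 3 sirtuin falls with stimulation passed, that of Sirt3, and after cyclic loess 2 passed. Sirt1, the nuclear member best known for acting on transcription factors, read 3425 and 3109.7 in control cells, 4312 and 3882 with dorsomorphin, 1552 and 1595 after stimulation, and 4201 and 2484 with both. Its folds of -1.05 ± 0.30 with stimulation and 1.04 ± 0.30 with dorsomorphin in stimulated cells missed the threshold (adjusted p = 0.0529 and 0.0574), although the groups did not overlap. Both passed with an offset of 16 (adjusted p = 0.0369 and 0.0414), the 60th percentile filter (0.0209 and 0.023) and trended, robust variance (0.00946 and 0.0106), but with neither other scaling.

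Among 4 DNA methyltransferases, 1 rose with stimulation and 1 fell with dorsomorphin in stimulated cells. Dnmt3a, which sets new methylation, read 561 and 539 in control cells, 1179 and 854 with dorsomorphin, 1936 and 1320.4 after stimulation, and 1136 and 774 with both. It rose 2.91-fold with stimulation (1.54 ± 0.33, adjusted p = 0.0256), and 4 other probe sets gave 1.05 to 1.71. With dorsomorphin the 5 probe sets of Dnmt3a diverged. In unstimulated cells the brightest gave 0.87 and the others -2.79, -2.66, -0.57 and 1.80. In stimulated cells the brightest gave -0.77 ± 0.33 and did not pass (adjusted p = 0.152), while the others gave -0.04 to -3.79 and the mean of all fell by 2.02 (adjusted p = 0.00803). Dnmt3b, the second enzyme of this kind, read 786 and 867, 712 and 554, 1357 and 1239, and 677 and 654 in the order control, dorsomorphin, stimulated and both. It fell by 0.96 ± 0.23 with dorsomorphin in stimulated cells (adjusted p = 0.0331), and its fold with stimulation was 0.65 ± 0.23 (adjusted p = 0.0887, and 0.0317 after cyclic loess).

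Dnmt1, which copies methylation to new DNA strands, read 1995 and 2132 in control cells and 1179 to 1791 over the other 6 arrays, and did not pass in any comparison. Dnmt3l, an inactive cofactor, read 5.07 to 72.1 and gave no usable level. TET dioxygenases oxidise methylated cytosine, and 0 of the 3 passed in any comparison at the main settings. Tet2 read 937 to 1522 over the 8 arrays, with control arrays at 952 and 1186. Tet1 read 143 and 171 in control cells, 3.56 and 27.3 with dorsomorphin, 46.1 and 16.7 after stimulation, and 14.4 and 15 with both. It was at least 4.19-fold lower with dorsomorphin in unstimulated cells and did not pass (adjusted p = 0.0513). With an offset of 16 it passed there (adjusted p = 0.012) and with stimulation (0.0191). It also passed there with the 60th percentile filter (0.0185), trended, robust variance (0.0236) and without dorsomorphin replicate 2 (0.0458), and with stimulation without either dorsomorphin array (0.0389). Its 3 other probe sets gave -2.25, -0.97 and 2.03, each above the floor on 2 to 4 arrays. Tet3 read 16 to 116 and was highest on stimulated replicate 1.

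Dorsomorphin could be compared between the 2 states without shared arrays. Of the 11 members that fell in unstimulated cells and the 11 that fell in stimulated cells, 6 were the same (6 of 11 in each list), namely Nsd1, Setd4, Kdm6b, Kat8, Hdac6 and Sirt5. Of all genes, 630 (4.51%) fell in both, against 8.22% of the members. Of the 8 CD4 T cell markers, 6 fell with dorsomorphin in unstimulated cells, while in stimulated cells 2 fell and 1 rose. The part of these markers was not tested. The 5 members that fell in unstimulated cells only by the threshold were Kmt2d, Setd1b, Hdac8, Sirt3 and Sirt4, and their interaction terms, from 1.55 to 2.64, did not pass (adjusted p from 0.0543 to 0.202). In the interaction, 0 members passed the limma threshold, beside 0.0358% of all genes that rose in it and 0.0501% that fell (0.0858% together; 0.0116% and 0.0581% of the brighter genes), and 31 members and 3687 of all genes had an unadjusted p under 0.05. With a trended, robust variance 15 members rose and 4 fell in it, beside 1298 and 738 of all genes. With the 60th percentile filter the members' counts were 11 and 3, beside 1231 and 636 genes.

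**Figure D5:**
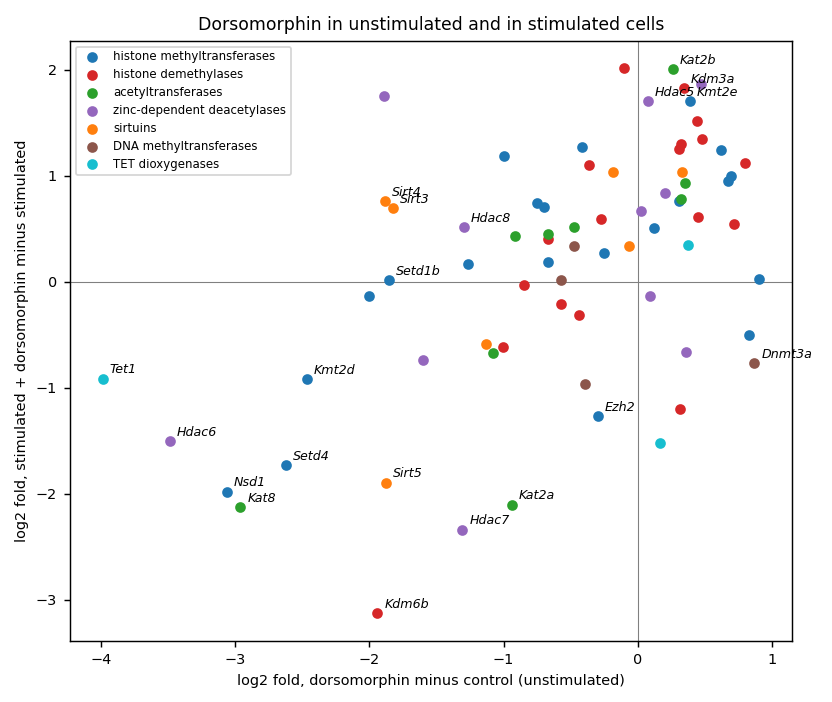
Log2 fold of each member with dorsomorphin in unstimulated cells (horizontal) and in stimulated cells (vertical), coloured by enzyme class, with 20 members named. Nsd1, Setd4, Kdm6b, Kat8, Hdac6 and Sirt5 lie at the lower left, and Kat2b, Kdm3a, Hdac5 and Kmt2e at the top near 0 on the horizontal axis.

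Opposite calls were also counted over the comparisons that share the stimulated arrays. Ezh2, Kdm2b, Kdm6b and Kat2a rose with stimulation and fell with dorsomorphin in stimulated cells. These were 4 of the 73 members, beside 865 of the 13983 genes (6.19%). In the other direction, 11 of the 73 members fell and then rose, beside 863 of the 13983 genes (6.17%). These members were Kmt2e, Setd3, Kdm3a, Kdm3b, Kdm4c, Kdm4d, Kdm5a, Kdm6a, Kat2b, Hdac5 and Hdac9. Nothing is read from these counts beyond the values, because a single pair of arrays enters both.

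Genes that work with these enzymes were counted from lists of partners. Beside these counts, 8.98% of all tested genes rose and 14.4% fell with stimulation. With dorsomorphin the shares were 9.71% and 12.4% in stimulated cells and 1.92% and 11.1% in unstimulated cells. No list was tested against these shares. Of 18 other histone methyltransferases measured, 8 rose and 3 fell with stimulation, and 2 rose and 9 fell with dorsomorphin in stimulated cells. The lysine methyltransferase gene Smyd2 rose by 4.10 and fell by 4.58, and Prmt1, the main asymmetric arginine methyltransferase, rose by 2.52 with stimulation and was at -2.17 in the second comparison. Prmt6 and Prmt7 fell by 2.66 and 2.38 with dorsomorphin in stimulated cells. Their median fold with stimulation was 0.99, against -0.92 for the methyltransferases described above. Of 34 acetyltransferase partners and other acetyltransferases, 2 rose and 11 fell with stimulation. Hat1, which acetylates new histones, rose by 1.98 and Tada2a, a SAGA subunit, by 1.94, while Ing2 fell by 1.91. Of 22 deacetylase complex partners 1 rose and 7 fell, with Mef2d, the partner of Hdac5 and Hdac7, at -2.09. Of 24 Polycomb partners 2 rose and 3 fell, with Bmi1 at 1.45 and Cbx7 at -2.63. COMPASS partners, which serve the Kmt2 and Setd1 enzymes, had 1 rise and 2 falls of 11, and DNA methylation partners 0 and 3 of 9.

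With dorsomorphin in stimulated cells the Polycomb partners had 3 rises and 3 falls, the deacetylase partners 4 and 3, the acetyltransferase partners 6 and 5, the COMPASS partners 1 and 1 and the DNA methylation partners 2 and 0. In unstimulated cells these 5 lists had 0 and 3, 0 and 0, 1 and 3, 0 and 0, and 1 and 0, and the other methyltransferases 0 and 5. Genes that supply the enzymes' cofactors, 14 measured, had 2 rises and 3 falls with stimulation, beside 8.98% and 14.4% of all genes. Nampt, the rate-limiting enzyme of NAD+ salvage, rose by 2.09, and Acss2, which makes acetyl-CoA from acetate, fell by 2.85. Idh1, which makes the 2-oxoglutarate that demethylases and TET enzymes use, fell by 3.35 and rose by 2.80 with dorsomorphin in stimulated cells. Idh3a of the same list went the other way, at 1.86 with stimulation and -1.38 with dorsomorphin in stimulated cells. In that comparison the cofactor list had 2 rises and 3 falls, and in unstimulated cells 0 and 3.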

How the data were processed

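Intensity values on a linear scale were deposited for 45101 probe sets on 8 arrays, each array with a trimmed mean of 500 (2% taken off each end). Per the submitters' processing notes, RMA and affy were used, with no version given, although the values are not on RMA's log2 scale. The log2 of each value was taken with no further scaling, and without detection calls the 40th percentile of all values (log2 5.22) served as the floor. Each gene was read from the probe set with the highest mean and tested if above the floor on at least 2 arrays. Where both arrays of 1 group lay under the floor, "at least" marks a bound, taken from the brighter mean and, per dim array, the higher of floor and value. limma 3.58.1 in R 4.3.3 fitted all 8 arrays, with 4 residual and 1.90 prior degrees of freedom, in 5 contrasts, with two-sided p-values adjusted over all 13983 genes and a threshold of 0.05. The step was tested on simulated data. Named members followed a rule: per contrast the 8 largest folds in each direction among those called with no overlap of arrays, plus 13 set genes, and up to 4 genes per partner list. The alternatives tried were 2 scalings, an offset of 16, the mean of probe sets, 2 filters, the 4 arrays compared, trended variance, a replicate block and leaving out each array. Members and lists were chosen with earlier results of these data known. The number of arrays, 2 per group, limits the precision.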

Additional observations from a re-analysis of the deposited data

How the results depend on the processing

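With stimulation alone, the members that rose and fell were 6 and 25. They were 6 and 12 with median centring and 3 and 6 with only the 4 arrays compared. Cyclic loess gave 10 rises, averaged probe sets 13 falls, the 60th percentile filter 10 rises and no filter 8 falls. Over all genes, 1256 rises and 2013 falls became 745 and 923 with only the 4 arrays compared. They became 984 and 1380 with probe sets averaged, 1674 and 2696 with the 60th percentile filter, and 849 and 1273 with no filter. The filters and the averaging changed which genes were fitted, with 18193 for no filter, so these counts lack a common total. With dorsomorphin in unstimulated cells (0 and 11) there was 1 rise with the mean of probe sets. There were 3 and 19 with the 60th percentile filter, and 5 and 19 with trended, robust variance. Over all genes, 268 rises and 1557 falls became 157 and 901, 586 and 2382, and 706 and 2397 in these settings. With dorsomorphin in stimulated cells (16 and 11) the rises were 5 with median centring and 9 with no filter. With only the 4 arrays compared, 0 members and 0 of all genes rose or fell. Rises over all genes were 1358, then 689 with median centring and 843 with no filter. The interaction (0 and 0) gave 3 and 1 with an offset of 16. It gave 11 and 3 with the 60th percentile filter, and 15 and 4 with trended, robust variance. Over all genes, 5 rises and 7 falls became 553 and 357, 1231 and 636, and 1298 and 738 in these settings. Leaving out 1 array at a time gave as many or fewer calls of members for stimulation alone and for dorsomorphin in stimulated cells. For dorsomorphin in unstimulated cells some of these fits gave more falls of members and others fewer. Without stimulated replicate 1, members and other genes rose in the interaction. The counts over all genes shifted in these fits as well, mostly downward. Stimulation with dorsomorphin gave 0 calls of members under every alternative run. The cause of these shifts was not tested, except that fewer arrays or more genes enter some fits. No named member changed sign while called under any alternative. With the replicate number as a block, 7 members rose and 30 fell with stimulation alone (1499 and 2498 of all genes). For dorsomorphin the members' counts were 0 and 14 in unstimulated cells (393 and 1924) and 20 and 11 in stimulated cells (1672 and 1968). Deviations from the group means of same-numbered arrays correlated at 0.07 to 0.18 over genes, with 4 of 6 group pairs over 0.1 and 2 under it, so pairing was not assumed. The replicate numbers did separate the arrays on the Dap control, whose 3′ minus 5′ log2 difference was 1.51 to 1.65 on every replicate 1 array and 2.69 to 3.10 on every replicate 2 array. What the number stands for is not stated in the labels, and a batch shared by number was not tested beyond the block. The actin probe sets, 3′ minus 5′, gave a log2 difference of 0.33 on both stimulated arrays and 0.47 to 0.80 on the others, and its part was not tested. Signals near the floor limit Kdm4d, Kdm5d, Hdac9, Hdac11, Dnmt3l, Tet1 and Tet3.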
